A study of Stropharia rugosoannulata with 3 samples.

Results

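The gene models nearest to the ends of the large contigs of *Stropharia rugosoannulata* were examined in mycelia grown on potato dextrose agar (PDA). Model names in the expression table give a contig and a number along it. On each of the 18 contigs that hold at least 100 models, the first 20 and the last 20 models in number order were taken, which gave 720 models at 36 ends out of 11750 models on 21 contigs. The other 10947 models of these 18 contigs are called inner models, and the remaining 83 models lie on the 3 smallest contigs. The rule took end models by position only and used no expression value, but it was set with earlier results of these data known. Coordinates and sequences were not used here, so position means order along the contig, with position 1 for the outermost model, and not a distance in bases. The tables give no function for the end models, and none of them is among the genes named in the text of the study, so they are given by identifier.

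All 3 RNA-seq libraries were made from mycelia of a single growth condition, PDA plates at 25 °C. The sample labels give the strain as Heinong No.1, a commercial cultivar, and the methods of the study also name that strain for the transcriptome. The sample titles, however, name S68, the monokaryotic isolate of that cultivar whose genome was assembled. Because of the titles, whether the RNA came from the cultivar or from the isolate was not settled here. Nothing in the labels says whether the libraries came from separate cultures, so the spread between them may be technical. Counts per library summed to 31831513, 30516180 and 29678333 in libraries 1, 2 and 3. For a model without a count the upper limit was set at 6 counts (3 fragments at 2 counts each), which is 0.134, 0.140 and 0.144 FPKM in libraries 1, 2 and 3 for a model of median length, and this limit covers counting error only.

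In fungi, chromosomes end in telomeres, short tandem repeats that protect the DNA ends. The adjoining subtelomeric regions are often rich in transposable elements and in gene families that differ between strains, and secondary metabolite genes are frequently found there. In budding yeast, genes placed next to a telomere can be silenced by the packing of the chromatin. A contig end need not be a chromosome end, since an assembly can also stop inside a repeat. The study reported telomeric repeats at either end or both ends of most scaffolds of the assembly, with a summary in its supplement. Which ends these are was not analysed here, so telomeric ends and breaks in the assembly were not told apart.

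End models were low more often than the genome as a whole. FPKM, the fragments assigned to a model corrected for its length and for the depth of the library, was averaged over the 3 libraries, and a model was called low below a mean of 1. By this call 318 of the 720 end models (44.2%) were low, beside 16.7% of all models and 14.5% of the inner models. A silent model was one without a count in any library. There were 223 of these among the end models (30.97%), beside 10.7% of all models and 8.97% of the inner models. The end models make up 6.13% of all models but held 16.2% of the low models and 17.7% of the silent models of the genome. Another 95 end models had counts but a mean FPKM below 1, at a median of 0.167 FPKM. Of these, 37 had at most 6 counts in every library, so they lay within the limit set for a count of 0. The other 402 end models reached a mean of at least 1 FPKM.

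The same picture was seen in each library. FPKM was below 1 for 337, 325 and 323 of the 720 end models in libraries 1, 2 and 3 (46.8%, 45.1% and 44.9%), whereas the shares among inner models were 15.7%, 14.4% and 14.7%. The ranges of the shares did not overlap. Median FPKM over the end models was 1.92, 2.48 and 2.29 in libraries 1, 2 and 3, against 22.5, 27.1 and 25.6 over the inner models. On the scale of log2(FPKM + 1), the mean of the end models was lower than that of the inner models by 1.78, 1.82 and 1.85, a mean difference (end minus inner) of −1.82 ± 0.04 (SD, n = 3 libraries). The spread between libraries was thus small beside the difference. With 1 condition there was no group of samples to test against, and models are not replicates, so no p-value is given.

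The end models that were expressed had lower levels as well. Among the end models of at least 1 FPKM the median of the mean FPKM was 21.7, against 33.3 among such inner models. Without the silent models, the mean log2(FPKM + 1) of the end models was still lower, by 1.12 (end minus inner, −1.12). That value still includes models with counts but a mean FPKM below 1, which were 13.2% of the end models and 5.49% of the inner models. A mean of 100 FPKM or more was less common at the ends, with 50 models (6.94%), against 14.9% of the inner models and 14.3% of all models. These shares count the low models too, so they partly restate the excess of low models at the ends. Among models of at least 1 FPKM, those of 100 FPKM or more were 50 of 402 at the ends and 1634 of 9364 inner models. For 1000 FPKM or more the share was 0.556% (4 models), near the 0.831% of the inner models and the 0.81% of all models. Between 2.96% and 3.25% of the counts of a library fell on the end models.

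**Figure D1:**
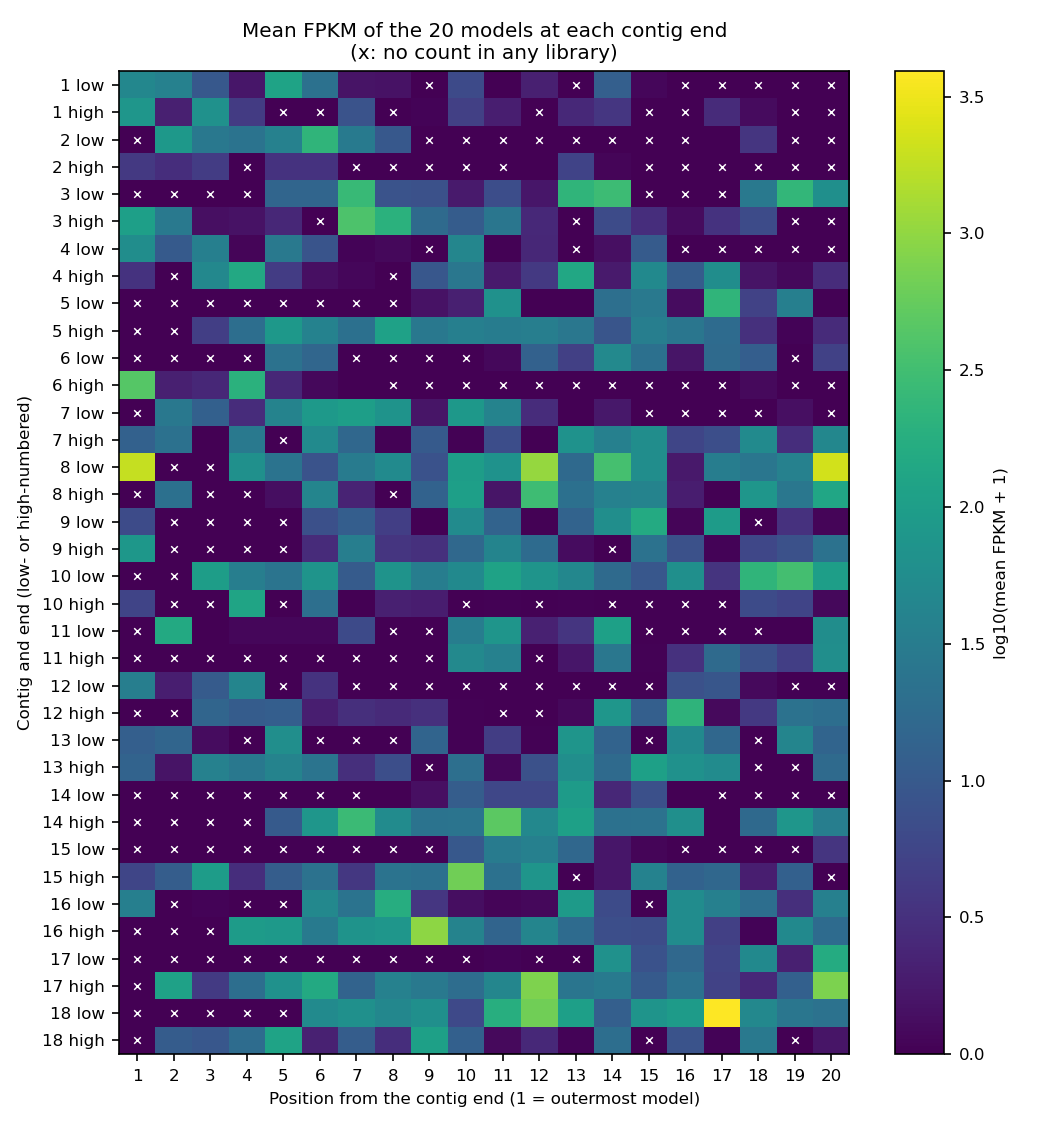
Mean FPKM over the 3 libraries, as log10(mean FPKM + 1), for the 20 models at each of the 36 contig ends (rows) by position from the end (columns, 1 = outermost model); crosses mark the 223 models without a count in any library. Unbroken rows of at least 5 crosses from position 1 are seen at the low-numbered ends of contigs 5, 14, 15, 17 and 18 and at the high-numbered end of contig 11. The low-numbered end of contig 10 and the high-numbered end of contig 17 carry crosses only at their outermost 2 models and 1 model.

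The 36 ends differed widely from each other. An end was called silent where at least 10 of its 20 models were low, active where at most 3 were low, and mixed with 4 to 9 low models. This gave 16 silent, 16 mixed and 4 active ends. Windows of 20 inner models were not called in the same way, so how usual such calls are inside the contigs was not examined. The limits were the same for all contigs, although the share of low inner models ran from 5.82% (contig 3) to 36.5% (contig 12). The median of the mean FPKM over the 20 models ranged from 0, at 7 ends, to 47.3, at the low-numbered end of contig 10. At 3 ends, the low-numbered ends of contigs 8, 10 and 18, it was above the 23.9 FPKM of all models. The share of low models was above that of the inner models of the same contig at 31 of the 36 ends. The 5 exceptions were the low-numbered end of contig 10 and the high-numbered ends of contigs 12, 13, 15 and 17. On contigs 12 and 15 the inner models themselves were often low (36.5% and 35.1%), and without these 2 contigs 43.6% of the end models were low, close to the share over all 18 contigs.

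**Figure D2:**
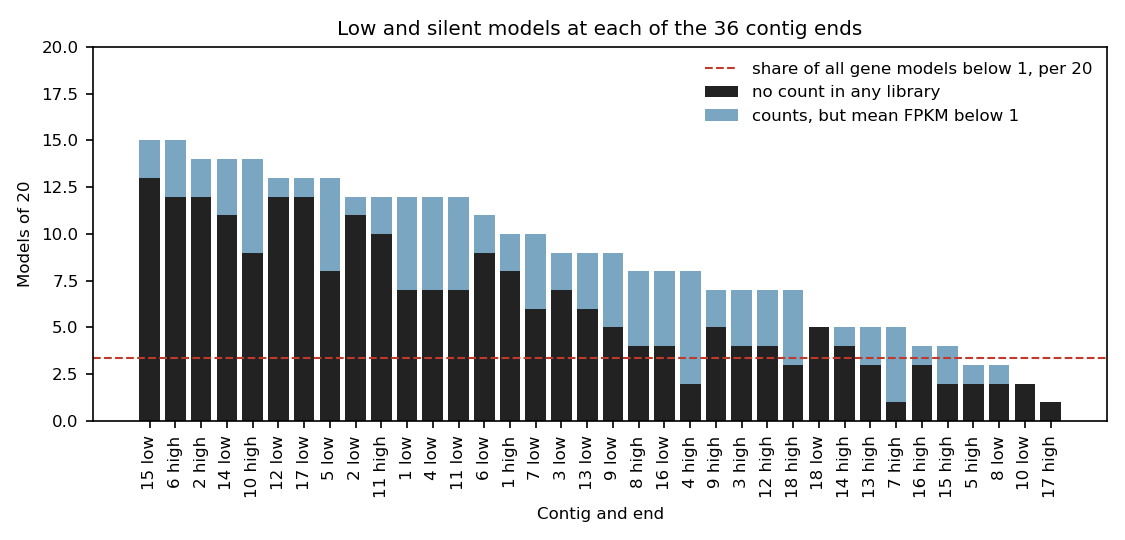
Number of low models among the 20 models of each contig end, split into silent models (black, no count in any library) and models with counts but a mean FPKM below 1 (blue), with ends in descending order; the dashed line is the share of all gene models below 1 FPKM (16.7%) per 20 models. The bars fall from 15 low models at the low-numbered end of contig 15 and the high-numbered end of contig 6 to 1 at the high-numbered end of contig 17.

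The 16 silent ends held 202 low models of 320, of which 154 had no count in any library. They were both ends of contigs 1, 2, 6 and 11, the low-numbered ends of contigs 4, 5, 7, 12, 14, 15 and 17, and the high-numbered end of contig 10. Taking each library on its own, 15 of the 16 had at least 10 models below 1 FPKM in all 3 libraries, and the low-numbered end of contig 7 did so in 2. Conversely, the high-numbered end of contig 4 and the low-numbered end of contig 9, both mixed by their means, reached 10 in 1 library each. The silent calls were therefore stable between libraries except near the limit of 10. The limit on the level mattered more, since 24 ends would be called silent with low set below a mean FPKM of 5.

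Contig 2 had the end with the weakest signal. At its high-numbered end 14 of the 20 models were low and 12 silent, and no model exceeded the 4.37 ± 0.847 FPKM (SD, n = 3) of SRUG_02649, at position 13, which had 56, 42 and 61 counts in libraries 1, 2 and 3. The outermost model there, SRUG_02661, was detected in every library at a low level (2.86, 3.21 and 2.76 FPKM). At the other 15 silent ends the model of highest mean reached between 35.7 and 436 FPKM, so these ends were not silent throughout.

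The high-numbered end of contig 6 shows such a mixture. Its outermost model, SRUG_06429, was among the 11 most abundant end models, with 434, 448 and 428 FPKM in libraries 1, 2 and 3 from 8647, 8542 and 7959 counts. SRUG_06426, at position 4, had 198 ± 42.1 FPKM (SD, n = 3). From position 6 inward every model was low up to position 26, a run of 21 models of which 18 had no count in any library. Models of high level and a long low stretch thus lay side by side at this end, and 15 of its 20 models were low.

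Of the 118 models of at least 1 FPKM in the silent ends, 10 had a mean of at least 100 FPKM. Besides SRUG_06429 and SRUG_06426, these were SRUG_01323 on contig 2 (210, 230 and 238 FPKM in libraries 1, 2 and 3), SRUG_04750 on contig 5 (223, 226 and 220), SRUG_11337 on contig 17, SRUG_09263 and SRUG_09275 on contig 11, SRUG_09258 on contig 10, SRUG_00005 on contig 1 and SRUG_06436 on contig 7. The 3 libraries lay close together for SRUG_01323 and SRUG_04750. In contrast, SRUG_09263, at position 2 next to a silent outermost model, had 188, 49.8 and 218 FPKM, with library 2 well below the others. SRUG_11337 had 285, 84.6 and 114 FPKM, with library 1 on its own at the top. The median of the expressed models of the silent ends was 11.4 FPKM, against 21.4 in the mixed ends and 32.4 in the active ends; the same means were used to call the ends, so this order is only a description.

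The 4 active ends were the low-numbered ends of contigs 8 and 10 and the high-numbered ends of contigs 5 and 17. Together they had 9 low models of 80 (7 of them silent), and their medians ran from 22.6 to 47.3 FPKM. Low models were 5% to 15% of each of these ends, beside 16.7% of all models, whose median was 23.9 FPKM. The call thus marks ends without an excess of low models over the genome as a whole. At the ends of contigs 5 and 8 the share was 15%, above the 5.94% and 8.74% of the inner models of those contigs. At the end of contig 5 the median of 22.6 FPKM was below the 38.1 FPKM of its inner models. Taking each library on its own, 3, 3 and 5 ends were active in libraries 1, 2 and 3. The high-numbered end of contig 5, and that of contig 15, mixed by its means, each had 4, 4 and 3 models below 1 FPKM. Both were thus active in library 3 alone. The number of active ends was 2 when at most 2 low models were allowed, and also 2 with low set below a mean FPKM of 5. At the high-numbered end of contig 17, only the outermost model, SRUG_11512, was low, with no count in any library. The next model, SRUG_11511, had 101.2, 138.6 and 103.3 FPKM in libraries 1, 2 and 3, and SRUG_11501 and SRUG_11493 reached means of 801 and 762 FPKM. On contig 10 the outermost pair of models, SRUG_08517 and SRUG_08518, had no count, and all of the other 18 had a mean of at least 1 FPKM, up to 331 ± 85.5 FPKM (SD, n = 3) for SRUG_08535.

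Contig 8 carried the most active terminal model. SRUG_07059, at position 1 of the low-numbered end, had 2194, 1174 and 2249 FPKM in libraries 1, 2 and 3 from 26495, 13540 and 25346 counts. It ranked 30 among all 11750 models. Its neighbours at positions 2 and 3, SRUG_07060 and SRUG_07061, had no count in any library. SRUG_07078, at position 20, had a mean of 2187 ± 364 FPKM and SRUG_07070, at position 12, had 1043 ± 330 FPKM (SD, n = 3 each). The means of SRUG_07059 and SRUG_07078 differed by less than the spread between libraries.

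The ends of a single contig did not have to match. On 4 contigs both ends were silent, on 8 contigs only 1 was, and on 6 contigs neither was. The largest differences within a contig, of 12 low models, were seen on contig 17 (13 low models at the low-numbered and 1 at the high-numbered end) and on contig 10 (2 and 14). Contigs 15 (15 and 4) and 5 (13 and 3) followed. Contig 11 had 12 low models at each end. Low-numbered ends held 182 of the low models and high-numbered ends 136. The numbering gives no orientation of the chromosome, so no meaning attaches to which end has the lower numbers.

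The outermost position itself was often silent. Of the 36 outermost models, 19 had no count in any library, beside 10.7% of all models, and these were the only low ones. The other 17 had a mean of at least 1 FPKM. No outermost model lay between 0 and 1 FPKM, but only 6.04% of all models did, so little can be read from this among 36. The lowest detected was SRUG_04733 on contig 4, with 2.44, 2.19 and 2.38 FPKM from 432, 371 and 394 counts. Next above it were SRUG_02661 (2.94 FPKM on average), SRUG_09261 (4.41) and SRUG_11065 (4.68). SRUG_07923 had a mean of 5.60 FPKM, and SRUG_10253, SRUG_07058 and SRUG_10585 lay between 11.2 and 13.0 FPKM. Outermost models at 33.0 to 56.7 FPKM were SRUG_09873, SRUG_11066, SRUG_00001 and SRUG_03819. Those of contig 1 (high-numbered end, SRUG_01317), contig 9 (SRUG_08516) and contig 3 (SRUG_03818) had means of 76.1, 79.7 and 104 FPKM, below SRUG_06429 and SRUG_07059.

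Outermost models without a count were SRUG_01318, SRUG_02662, SRUG_04734, SRUG_05749, SRUG_05750, SRUG_06430, SRUG_07922, SRUG_08517, SRUG_09262, SRUG_09872, SRUG_10252, SRUG_10586, SRUG_10831, SRUG_10832, SRUG_11317, SRUG_11318, SRUG_11512, SRUG_11513 and SRUG_11667. On contigs 5, 11, 14, 17 and 18 this was so at both ends. Position 2 resembled position 1, with 20 low models of 36, 19 of them silent. Models with counts but a mean FPKM below 1 made up 6.67% of the 180 models at positions 1 to 5 and 18.3% at positions 11 to 15, beside 5.49% of the inner models.

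Uninterrupted runs of low models from the very end were the exception. The terminal run, counted inward to the first model of at least 1 FPKM, was 0 models at 17 ends and at most 2 at 26 of the 36. It was at least 5 at 6 ends, and 50 of the 54 models in those runs had no count in any library. Contig 17 had the longest, with 13 models from SRUG_11318 to SRUG_11330 at its low-numbered end. In this run SRUG_11328 alone had counts, 5 in library 1 and 2 in library 3. The run stopped at SRUG_11331, which had 130, 28.8 and 37.0 FPKM in libraries 1, 2 and 3.

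The other long terminal runs ended in different ways. At the high-numbered end of contig 11, the 9 models from SRUG_09872 to SRUG_09864 had no count, and the next, SRUG_09863, had 54.0, 44.8 and 45.9 FPKM. The step was similar on contig 18, where the 5 models from SRUG_11513 to SRUG_11517 had no count and SRUG_11518 had 52.6, 45.8 and 56.0 FPKM. Here the level changed from 0 to above the median of all models in 1 position, in every library. On contig 15 the 9 models from SRUG_10832 to SRUG_10840 had no count and SRUG_10841 stood at 8.78 ± 1.32 FPKM (SD, n = 3).

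On contigs 14 and 5 the run faded out. SRUG_10594, the last of 9 low models on contig 14, had 83, 99 and 5 counts in libraries 1, 2 and 3 (mean 0.424 FPKM), before SRUG_10595 at 10.6 ± 2.42 FPKM (SD, n = 3). On contig 5 the first 8 models had no count, SRUG_04742 had 0.673, 0.454 and 0.390 FPKM, and SRUG_04743, which ended the run of 9, had 1.44, 0.625 and 1.10 FPKM. Its mean of 1.05 lay so near the limit that library 2 alone would have placed it among the low models.

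**Figure D3:**
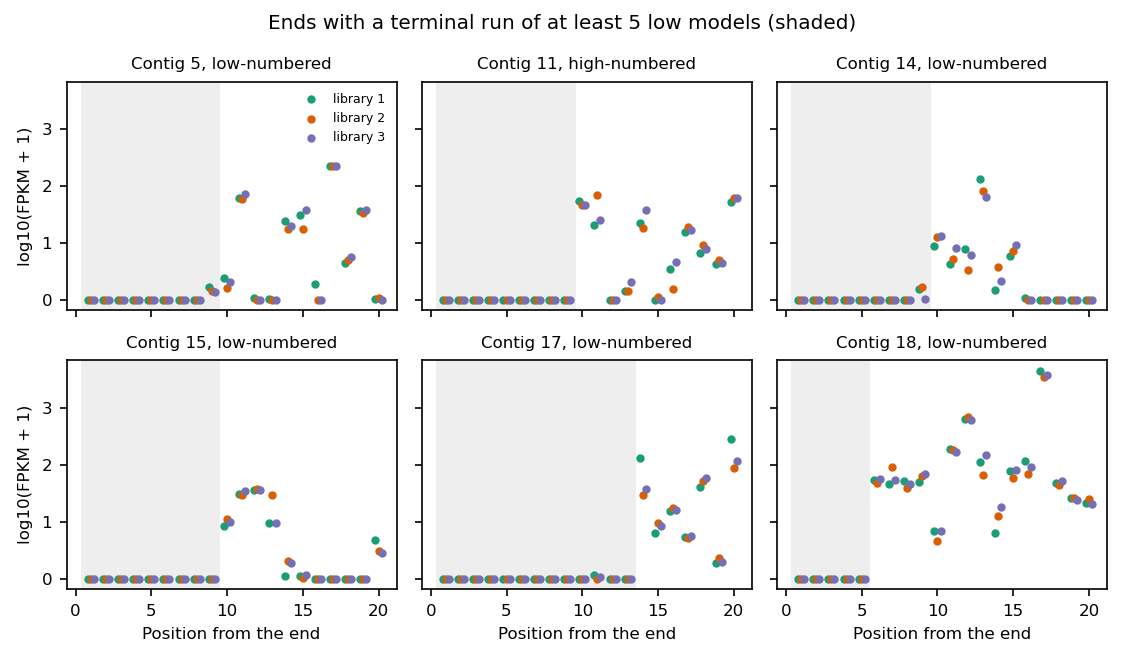
FPKM in each of the 3 libraries, as log10(FPKM + 1), by position from the end (1 = outermost model) at the 6 ends with a terminal run of at least 5 low models; each point is 1 model in 1 library and the shaded part is the run. The points lie at or near 0 in the runs of 5 to 13 models and, except on contig 5, rise above 8 FPKM on average at the first position after the run.

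How far inward low levels reached was read from all ends together and from each end. By position, 51.7% of the models at positions 1 to 5 were low, then 40% at positions 6 to 10, 39.4% at 11 to 15 and 45.6% at 16 to 20. The share was 35.0% at positions 21 to 30, 28.1% at 31 to 40 and 23.6% at 41 to 50, stayed between 21.7% and 26.8% up to position 100, and was 10.4% for models farther in. Silent models made up 45.0% at positions 1 to 5, 21.1% at 11 to 15, 30.6% at 16 to 20 and 12.8% at 41 to 50. Their share lay between 11.55% and 16.76% from position 51 to 100 and was 6.42% beyond. The median of the mean FPKM was 0.450 at positions 1 to 5, 5.62 at 11 to 15, 2.22 at 16 to 20 and 17.1 at 41 to 50. It lay between 12.47 and 15.65 from position 51 to 100 and was 29.7 beyond position 100. In every library, the median at positions 1 to 50 was below that beyond position 100 in each interval. At the border of the 20 positions, 15 of 36 models were low at position 20 and 10 of 36 at position 21.

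**Figure D4:**
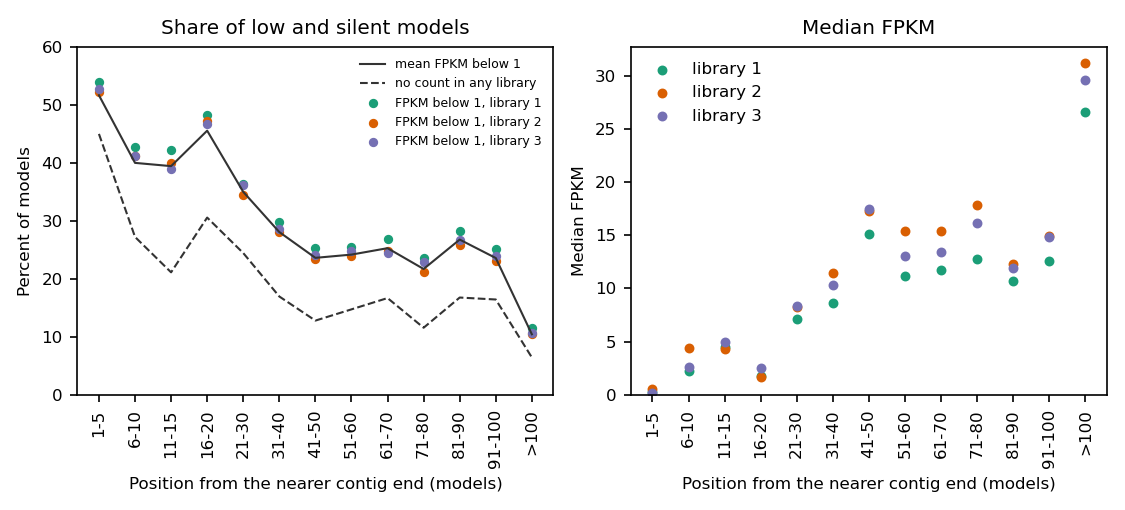
Left, percent of models with a mean FPKM below 1 (solid line), with FPKM below 1 in each library (points) and with no count in any library (dashed line), by position from the nearer contig end; right, median FPKM in each library for the same positions. The share of low models is 51.7% at positions 1 to 5, 23.6% at positions 41 to 50 and 10.4% beyond position 100. The median of the mean FPKM is 0.450 at positions 1 to 5 and 29.7 beyond position 100, and neither course is steady in between.

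Short contigs contribute few models to the far positions, so the course was also read on the 10 contigs with at least 600 models, a choice made after the data had been seen. There 46.5% of the models were low at positions 1 to 10 and 49.5% at positions 11 to 20. The share was 38.0%, 30.5% and 26.5% in the next 3 steps of 10 positions, between 15.5% and 26.5% from position 51 to 100, 14.3% at positions 101 to 150 and 11.7% at positions 201 to 300. On these contigs the outermost 10 positions were thus not lower than the next 10. Taking only contigs with at least 300 models, 46.2% of the outermost 5 models were low.

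Per end, low levels rarely formed an unbroken zone. Models were taken in blocks of 10 from the end inward, and the reach of an end was the number of models in successive blocks that each held at least 5 low models. The reach was 0 at 19 ends, 10 models at 10 ends and 20 models at 4 ends. Only 3 ends had a longer reach, of 30 models at the high-numbered end of contig 6 and the low-numbered end of contig 14, and of 60 models at the low-numbered end of contig 12. Inner models of contigs 6, 14 and 12 were low in 20.6%, 19.9% and 36.5%, against 14.5% of all inner models. Reach at these ends could thus not be told apart from the level of the contig itself. The number of ends with a reach past 20 models rose to 7 with at least 4 low models per block. It rose to 10 with low set below a mean FPKM of 5. At least 5 low models were found in 47.2% of the outermost blocks, 36.1% of the second, 30.6% of the third and 16.7% of the fifth, but in 8.78% of the 968 blocks farther in.

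A reach of 0 did not mean that an end was free of low stretches. At the low-numbered end of contig 1, 4 of the first 10 models were low, but a run of 16 low models lay at positions 15 to 30 (SRUG_00015 to SRUG_00030), of which 9 were silent. At the low-numbered end of contig 4, the 13 models from SRUG_03834 to SRUG_03846, at positions 16 to 28, had no count in any library, although the outermost model SRUG_03819 had 56.7 ± 10.7 FPKM (SD, n = 3). Longer runs began farther in, with 36 low models at positions 46 to 81 of the low-numbered end of contig 9 and 30 at positions 31 to 60 of that of contig 13.

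At the other extreme, the most abundant transcripts of the ends came from 10 of the 18 contigs. The 20 end models with the highest mean FPKM carried 55.2% of the summed FPKM of the 720. They lay on contigs 2, 3, 6, 8, 10 and 14 to 18, with 5 on contig 8. SRUG_11529, at position 17 of contig 18, was the highest, with 4462, 3478 and 3798 FPKM in libraries 1, 2 and 3, and ranked 14 among all models. SRUG_11309 on contig 16 (971 ± 38.4 FPKM), SRUG_11056 on contig 15 (656 ± 34.8), SRUG_11524 on contig 18 (641 ± 32.2) and SRUG_10821 on contig 14 (493 ± 80.2; SD, n = 3 each) were high in every library. In all, 5 end models were among the 100 most abundant models of the genome, which is 0.694% of the 720, near the 0.851% that 100 models make of all 11750.

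**Figure D5:**
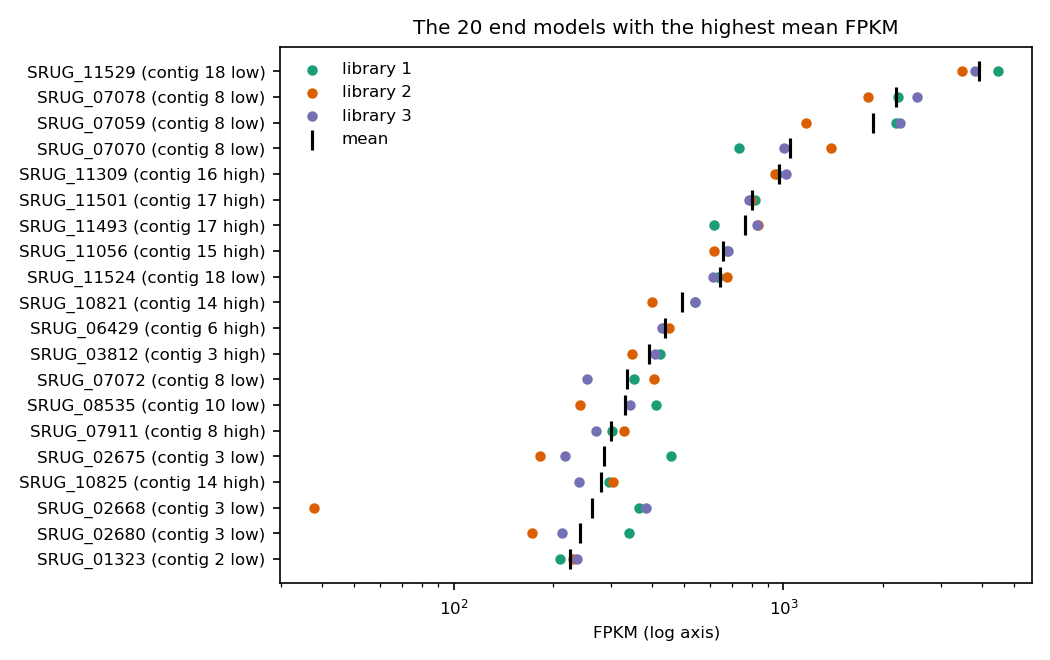
FPKM in each of the 3 libraries (points, log axis) and the mean (bar) for the 20 end models with the highest mean FPKM, with their contig and end. SRUG_11529 lies at 3478 FPKM or more in every library, and SRUG_02668 has 1 library (37.9 FPKM in library 2) far below its others.

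Some end models varied strongly between libraries. Across the 348 end models whose mean count was 100 or more, the median coefficient of variation of CPM (counts scaled to a common library size, normalized by TMM) was 0.199, against 0.187 over such inner models, so the ends were not much more variable as a group. The CPM was highest in library 2 for 35.9% of them, beside 37.8% of the inner models. The 3 with the highest coefficient were all high in library 2 alone. SRUG_07928, on contig 9, had 1.04, 17.8 and 0.501 FPKM in libraries 1, 2 and 3. SRUG_08506, at the other end of that contig, had 9.36, 112 and 2.05 FPKM, and SRUG_09256, on contig 10, had 4.33, 53.5 and 1.73 FPKM. Library 2 thus lay far above both others for these models, and their means rest on it.

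The reverse was seen on contig 3, where SRUG_02668 had 366, 37.9 and 384 FPKM in libraries 1, 2 and 3, or 9568, 948 and 9379 counts. A pair of models from the same end, SRUG_02675 (457, 183 and 217 FPKM) and SRUG_02680 (339, 173 and 213 FPKM), was lowest in library 2 as well, but their libraries 2 and 3 lay close together. These 3 models were among the 20 highest although 9 of the 20 models at that end were low.

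A property that the rule did not use is the length behind the FPKM, which follows from the counts per FPKM of a model. It could be read for the 354 end models (49.2%) with at least 50 counts in every library. Their median length was 0.896 times that of all models read in this way, with quartiles of 0.557 and 1.30, against a median of 1.00 and quartiles of 0.649 and 1.42 for 8942 inner models. The distributions overlapped broadly. Lengths of the low models, which make up most of the remainder, were not obtained.

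Reads from gene families or repeats that occur in several near-identical copies can be assigned to more than one model or to none. The treatment of such reads is not given by the sources used here, and the part of this in the counts of 0 was not tested.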

How the data were processed

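RNA-seq of mycelia was analysed in 3 libraries of 1 condition. The authors deposited whole-number counts and FPKM values per gene model, in 4 tables; the 2 count tables differed in 0 cells, as did the 2 FPKM tables. The submitters' processing notes name fastp, HISAT2 and StringTie, without versions; use of strand and of reads mapping to several models was not given by the sources used here. FPKM was 0 where the count was 0. Of the counts from 1 to 10, 67.7% were even, as when a fragment adds 2 counts.

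Models were ordered by number within contigs. Low models had a mean FPKM below 1, and the pseudocount on the log2 scale was 1 FPKM. Counts were normalized by TMM in edgeR 4.0.16 (R 4.3.3) for CPM. Python 3.11.15, pandas 2.3.3, NumPy 2.4.6 and matplotlib 3.10.9 were used. The calculation of the calls was run on simulated levels in which some ends had been made low by construction. This checks the calculation only and gives no support to the calls of the real ends. Other limits, end widths, units, contig sets and each library left out were tried. The end models, the limits and the rule for named models were chosen with earlier results of these data known. Named were the 36 outermost models, the 20 highest, the highest of the 4 ends with most and with fewest low models, models bounding terminal runs of at least 5, those of at least 100 FPKM in silent ends and the 3 most variable at mean counts of 100 or more. The text also names others, including models bounding inner runs, chosen after their values were seen. Of the 10 genes named in the text of the paper, 0 were end models.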

Additional observations from a re-analysis of the deposited data

How the results depend on the processing

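The direction of the difference between end and inner models was the same under every setting tried. With low set below a mean FPKM of 0.5, 40.97% of the end models and 50% of the outermost 5 were low, beside 12.9% of the inner models. With low set below 5, these shares were 55.3% and 62.2%, beside 22.8% of the inner models. Under that setting, 2 ends were active and low levels reached past 20 models at 10 ends. With TMM-normalized CPM below 1 in place of FPKM, the shares were 45.8% and 53.3%, beside 14.6% of the inner models. With 10 models per end, 45.8% were low and 36.1% silent, with a median of 1.93 FPKM and a log2 difference (end minus inner) of −1.88. With 40 per end, the values were 37.9%, 25.8%, 5.68 FPKM and −1.55. Inner models were 15.35% low and 9.51% silent with 10 per end, and 13.3% low and 8.1% silent with 40. On contigs with at least 300 models, 46.5% of the end models and 46.2% of the outermost 5 were low, the median was 1.75 FPKM and the log2 difference −2.03. Counting models with at most 6 counts in every library as silent gave 36.1% of the end models and 11% of the inner models. Over models with a count only, the median was 13.5 FPKM and the log2 difference −1.12; the latter was −2.74 with a pseudocount of 0.1 and −2.03 on TMM-normalized CPM. Allowing at most 2 low models left 2 active ends, and at least 4 low models per block gave 7 ends with a reach past 20. Without 1 library in turn, the share of low models was between 44.6% and 45.4%, of silent models 31.4% to 32.8%, and of low models among the outermost 5 52.2% to 52.8%; the median was 2.25 to 2.48 FPKM, the log2 difference −1.83 to −1.80, and there were 16 to 17 silent and 4 to 5 active ends and 3 ends with a reach past 20. Among the inner models, 14.15% to 14.9% were low and 9.25% to 9.66% silent without 1 library in turn. Leaving out contigs 12 and 15, chosen after the data had been seen, moved none of the 5 values recomputed by more than the spread between libraries, or 1.5 times for the number of silent ends. For settings that changed a value the cause was not tested, apart from the change that the setting itself makes. No paired analysis was possible because there was 1 group. Depth limits the reading of silent models, as a count of 0 allows up to 6 counts, and with 1 condition a model silent here was not shown to be silent under others.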

Other observations

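The 3 smallest contigs, which have too few models to be divided into ends and inner parts, held 83 models. Of these, 65 were low and 51 had no count in any library.

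Model numbers along the contigs have gaps, where a number was not used in the tables. At the ends, 28 of 684 steps between neighbouring models (4.09%) skipped at least 1 number, against 138 of 10929 steps (1.26%) between neighbouring inner models. What the missing numbers stood for is not given by the sources used here. The part of these gaps in the levels was not tested.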
